A study of Argopecten irradians concentricus with 9 samples.

Results

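The transcript pool described here is that of adductor muscle from bay scallops (Argopecten irradians concentricus) kept at room temperature. Its members are 3 of the 9 RNA-seq libraries of the study, chosen by their label alone. The other 6 libraries, 3 from animals at high and 3 from animals at low water temperature, are used only in a closing comparison. All animals were 1 year old, and the labels state neither the temperatures in degrees nor the length of exposure. RNA was extracted with TRIzol for each tank, from muscle pieces that had been frozen separately, and the labels do not say whether the 3 libraries stand for separate animals or tanks. The spread between libraries given below may therefore be technical as well as biological.

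The adductor is the muscle that pulls the shell valves together. In scallops it has a large striated part, used for the fast claps of swimming, beside a smooth part that holds the shell closed at little energy cost. Contraction of molluscan muscle is switched on mainly at myosin itself, where calcium binds the essential light chain and the regulatory light chain keeps the head inactive without it. The thick filaments contain a core of paramyosin, and the thin filaments carry actin, tropomyosin and troponin. Arginine kinase, the invertebrate counterpart of creatine kinase, restores ATP from phosphoarginine during bursts of contraction, and octopine dehydrogenase ends anaerobic glycolysis in many molluscs.

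Values are FPKM, the fragments assigned to a gene model scaled by the length of the model and by a depth factor of the library. Where 3 values are given in a row they belong to room temperature libraries 1, 2 and 3, in that order. The 3 libraries held 15209589, 14438989 and 16229040 assigned reads, and all 9 held between 11716140 and 16229040. The deposited FPKM of a library summed to 666770, 722415 and 864235, so shares of this sum are given beside FPKM to compare libraries. The sum rests mainly on the most abundant models, so a share also depends on their level in the library. A share of summed FPKM weighs each transcript equally whatever its length, whereas a share of reads gives long transcripts more weight. Intervals on single values are narrow at this depth and cover counting error only: the leading model by reads held 8.14% of the reads in library 1, with an exact 95% binomial interval of 8.13% to 8.15%. Names are the best Swiss-Prot protein matches given in the table. Positions are on the table's own contigs, of an assembly that the sources used here do not name.

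The labelled tissue was checked against muscle genes and against marker lists of other tissues. Of 23 gene models matched to muscle proteins, 12 stood at 1 FPKM or more in all 3 libraries, against 23.3% of all models. The 23 together made up 14.6%, 15.4% and 14.4% of the pool. The lists for ciliated epithelium (87 models), gonad (31), digestive gland (85), nerve (108) and shell or mantle (54) each held at most 0.00988% of the pool in any library. Their leading members included carbonic anhydrase 9 of the shell or mantle list at 16.7, 23.6 and 19.2 FPKM, a sperm-associated antigen 7 homologue at 18.7, 10.4 and 12.98 FPKM, and intraflagellar transport protein 46 at 7.74, 8.27 and 7.15 FPKM. Hemocyte markers (92 models) were higher, at 0.13%, 0.0711% and 0.0364%, and most of this came from the antimicrobial peptide big defensin at 824, 484 and 266 FPKM. Without it the hemocyte markers summed to 44.5, 29.8 and 48.03 FPKM. Of the 92, 51 were listed at 0 in all 3, against 31.7% of all models. The lists match protein names only, so they miss unnamed models. C1q is a word of the hemocyte list, and an unnamed model with collagen and C1q domains stood at 317, 258 and 433 FPKM. The sums are therefore lower limits. In RNA from whole tissue, fewer cells of a type and less RNA per cell cannot be told apart.

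A small number of gene models carried most of the pool. Among 28864 models, the single most abundant held 5.78% ± 0.48 of summed FPKM (SD, n = 3), the first 10 held 23.5% ± 0.43, the first 50 held 54.3% ± 1.47 and the first 100 held 72.5% ± 2.12. Of each pool, 50% was held by 45, 43 and 41 models, and 90% by 452, 388 and 290 models. Library 3 was the most concentrated of the 3 on both counts. By reads, 50% of the pool lay in 41, 36 and 31 models, but the lists differed: 23 of the 50 leading models were shared between the scales. The 50 leading models by FPKM had a median length of 550.5 bases, against 1634.5 for the 50 leading by reads and 1416 for all models.

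**Figure D1:**
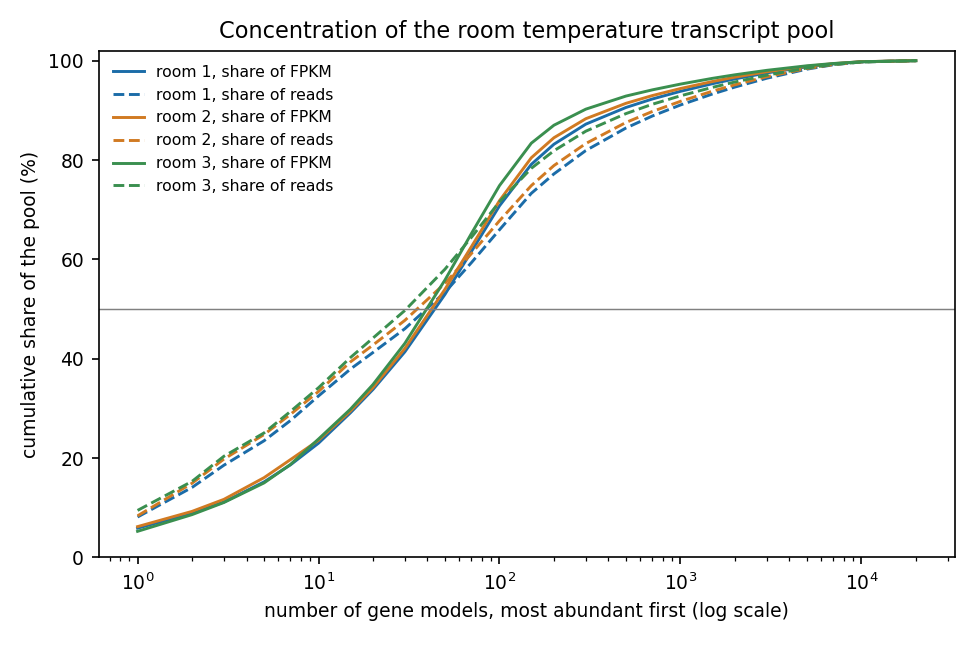
Cumulative share of the pool (vertical axis, %) against the number of gene models counted from the most abundant (horizontal axis, log scale), for each of the 3 room temperature libraries, as share of summed FPKM (solid lines) and of reads (dashed lines). The grey line marks 50%, which the FPKM curves cross at 45, 43 and 41 models, and the curve of library 3 runs above the others from about 10 models on.

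At the other end, 9164 models (31.7%) were listed at 0 in all 3 libraries and 14176 (49.1%) were above 0 in all 3. At a threshold of 1 FPKM, 6711 models (23.3%) were detected in all 3 libraries, and 522, 631 and 793 in library 1, 2 or 3 alone. Levels of at least 10 FPKM in all 3 were reached by 1670 models, at least 100 FPKM by 357, at least 1000 FPKM by 125 and at least 10000 FPKM by 7.

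The myosin light chains led the contractile genes. The regulatory light chain (best match: regulatory light chain A of smooth adductor muscle, Contig1462 from 224622 to 231433) was the most abundant model of all, at 39264, 44816 and 45426 FPKM. The essential light chain, whose best match is the striated adductor form (Contig731, 938028 to 950421), ranked 4 at 13835, 16349 and 16927 FPKM. The regulatory chain stood 2.75 ± 0.078 times above the essential chain (SD, n = 3), but the essential chain held more reads, 6.12% against 2.11%. The essential chain's model is 3909 bases long and the regulatory chain's 489 bases, and the order of the light chains turned with the scale.

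Myosin heavy chain, the motor (best match: striated muscle; Contig471, 737433 to 761750), ranked 67 by FPKM and 7 by reads, at 2654, 2858 and 3679 FPKM. It accounted for 99.9% of the FPKM of the 11 models with a myosin motor domain as their first domain. Paramyosin, the core protein of the thick filament (Contig362, 2228666 to 2242022), stood at 2193, 2521 and 3795 FPKM. The heavy chain to paramyosin ratio was 1.21, 1.13 and 0.969 by FPKM, and 1.87 on average by reads. As shares of summed FPKM, the heavy chain held 0.398%, 0.396% and 0.426% and paramyosin 0.329%, 0.349% and 0.439%, both highest in library 3. Titin-like models, giant elastic proteins, were far lower, with the leading one at 41.5, 37.6 and 47.9 FPKM. The only model named twitchin, a titin relative that controls catch tension in molluscan smooth muscle, was listed at 0 in all 3 libraries. That model is 303 bases long, and 3 reads on it would have been at most 0.69 FPKM, so a level below this was not detectable. It lies on the opposite strand within the span of a model named titin on Contig413, which stood at 6.55, 10.8 and 6.98 FPKM. Whether models under other names encode twitchin was not examined, so the 0 concerns this short model only. No model carried the name catchin or myorod.

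Actin led the thin filament. Adductor muscle actin (Contig251, 86768 to 92343) ranked 2 by FPKM, at 20055, 22151 and 29050.2 FPKM, and 1 by reads, with 8.14%, 8.38% and 9.47% of all reads. It made up 83.4% of the FPKM of the 41 models whose first domain is actin. A further model named actin-2 stood at 3262, 1838 and 4021 FPKM. Reads of similar actin copies may not be separable, and how alike these models are in sequence was not examined. Troponin is built of subunits with separate roles. Troponin C, the calcium sensor of the thin filament, stood at 1966, 2375 and 2479.6 FPKM. Troponin I, the inhibitory subunit, stood at 2347, 2280.1 and 2189 FPKM, so the ratio of C to I was 1.004 ± 0.15 (SD, n = 3). By reads this ratio was 0.479, with model lengths of 3050 and 6391 bases, so it depended on the scale.

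Several thin filament members had no Swiss-Prot name. A model with a troponin domain (Contig243, 328839 to 342442) ranked 6, at 11957, 15177 and 15514 FPKM, which was 6.28 ± 1.05 times the level of troponin I. By reads the ratio was 0.929, with model lengths of 945 and 6391 bases, so this order too turned with the scale. A model with a tropomyosin domain (Contig408, 1540241 to 1563144) ranked 12, at 9068, 9367 and 10038 FPKM. Tropomyosin lies along the actin filament and troponin attaches to it. Actin stood 2.21, 2.36 and 2.89 times above the tropomyosin-domain model. Sarcomeric alpha-actinin, which crosslinks actin at the Z-disc, stood at 1935, 1941 and 1979 FPKM, and filamin-C, an actin crosslinker, at 271, 275 and 278 FPKM. Other members varied more: cysteine and glycine-rich protein 3, a LIM protein of muscle, stood at 693, 1304 and 853 FPKM. Of the 39 thin filament and Z-disc models of at least 10 FPKM, 25.6% differed by more than 2 times between libraries. Among all models of at least 10 FPKM this was 20.6%. The median ratio of the highest to the lowest library was 1.45 for the class and 1.48 for all, so the class as a whole was not more variable.

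By protein name, thick filament models (28) made up 8.68% ± 0.57 of summed FPKM (SD, n = 3) and thin filament and Z-disc models (100) made up 5.88% ± 0.18. Together they made up 14.5%, 14.99% and 14.2% of the pool, and 25.7% ± 0.58 of reads. With the troponin-domain and tropomyosin-domain models, an addition made after the values were seen, the contractile share was 17.7% ± 0.62 of FPKM and 29.7% ± 0.47 of reads. Of these 130 models, 66 stood at 1 FPKM or more in every library, against 23.3% of all models.

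Calcium handling rested on few models. Sarcoplasmic calcium-binding protein, a soluble calcium buffer of invertebrate muscle (Contig53, 2858982 to 2871074), ranked 9 at 8928, 8622 and 16209 FPKM, with library 3 clearly above the others. The sarcoplasmic reticulum calcium pump, which returns calcium to the store, stood at 2349.7, 2529.6 and 2578 FPKM. The ryanodine receptor, the calcium release channel, stood at 78.3, 60.03 and 72.2 FPKM on a model of 15522 bases, and calmodulin at 137, 202 and 151 FPKM for its leading model. The 109 models of the class made up 1.94% ± 0.32 of the pool, and 3 of them held 95.4% of that.

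The enzymes of energy supply were headed by arginine kinase (Contig352, 1150339 to 1160699), rank 3 on both scales, at 14999, 17506 and 21110.1 FPKM. It stood 7.26 ± 0.64 times above glyceraldehyde-3-phosphate dehydrogenase (SD, n = 3), the most abundant glycolytic enzyme, which was at 2055, 2653 and 2676 FPKM. The other 4 models named arginine kinase stayed below 1 FPKM in every library, and 1 of them was listed at 0 throughout. Along glycolysis the levels were unequal. Aldolase stood at 900.003, 1255 and 1013 FPKM and a probable phosphoglycerate mutase at 864, 1518 and 855 FPKM. Triosephosphate isomerase followed at 406, 577 and 420.2 FPKM, and pyruvate kinase, the last step, at 198, 275 and 169 FPKM. Library 2 was the highest for these 4. Enolase stood at 91.5, 101.5 and 94.5 FPKM and hexokinase type 2, the entry step, at 23.4, 28.1 and 18.4 FPKM. Phosphofructokinase, the main control step, was at 7.41, 5.68 and 6.63 FPKM. The leading model named phosphoglycerate kinase, a late step, stood at 12.3, 5.31 and 5.03 FPKM. That model is 762 bases long, and the next models so named are 318 and 259 bases long. Whether they are complete was not examined, so their level may not be that of the enzyme. Apart from them, too, the levels did not follow the order of the pathway, with enolase below pyruvate kinase. Octopine dehydrogenase was present as 2 models, at 36.6, 40.1 and 20.2 FPKM and at 31.6, 28.5 and 10.8 FPKM, both lowest in library 3. The class made up 3.13% ± 0.19 of the pool and 5.97% ± 0.34 of reads, of which arginine kinase was 76.0% by FPKM.

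Oxidative phosphorylation made up 6.93%, 6.48% and 8.90% of the pool. Of its 57 models, 54 (94.7%, against 23.3% of all models) stood at 1 FPKM or more in every library. Its leading members were encoded by the mitochondrial genome in animals generally: cytochrome c oxidase subunit 1 at 10903, 9054 and 15956 FPKM and subunit 3 at 9101, 8005 and 14952 FPKM. These subunits form the catalytic core of the last complex of the respiratory chain. The 5 such models lay on 2 contigs and made up 3.93%, 3.22% and 5.45% of the pool, highest in library 3. The other named members varied less, at 2.99%, 3.27% and 3.44%, and stood at 3.87%, 4.304% and 4.47% with 19 models known by a Pfam domain only. They were led by the ATP synthase lipid-binding protein, the subunit of the rotor ring, at 3188, 3761 and 5244 FPKM. Citric acid cycle enzymes made up 0.28% ± 0.027, led by mitochondrial isocitrate dehydrogenase at 708, 786 and 887 FPKM.

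Cytosolic ribosomal proteins were the largest functional class. Their 88 models made up 39.7%, 40.1% and 41.8% of summed FPKM, and 21.4% ± 1.24 of reads, since their median length was 625.5 bases. Of the 88, 74 had a mean of at least 1000 FPKM, 34 were among the 50 most abundant models of the pool and 63 among the first 100. S27 of the small subunit led at 13201, 14655 and 17128 FPKM, followed by S15Aa at 8261, 9252 and 11125 FPKM and L39 of the large subunit at 8542, 9113 and 9811 FPKM. The middle 50% of the 79 models at 100 FPKM or more lay between 2179 and 5093 FPKM. Library 3 was the highest in 78 of the 79 on the FPKM scale, and in 52 of the 79 as a share of summed FPKM. Translation factors and tRNA ligases added 2.83% ± 0.09, led by elongation factor 1-alpha, which brings aminoacyl-tRNA to the ribosome, at 10984, 11615 and 13769.9 FPKM. Mitochondrial ribosomal proteins, in contrast, made up 0.156% ± 0.019 over 60 models. Of these, 58 (96.7%) stood at 1 FPKM or more in every library, against 23.3% of all models.

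**Figure D2:**
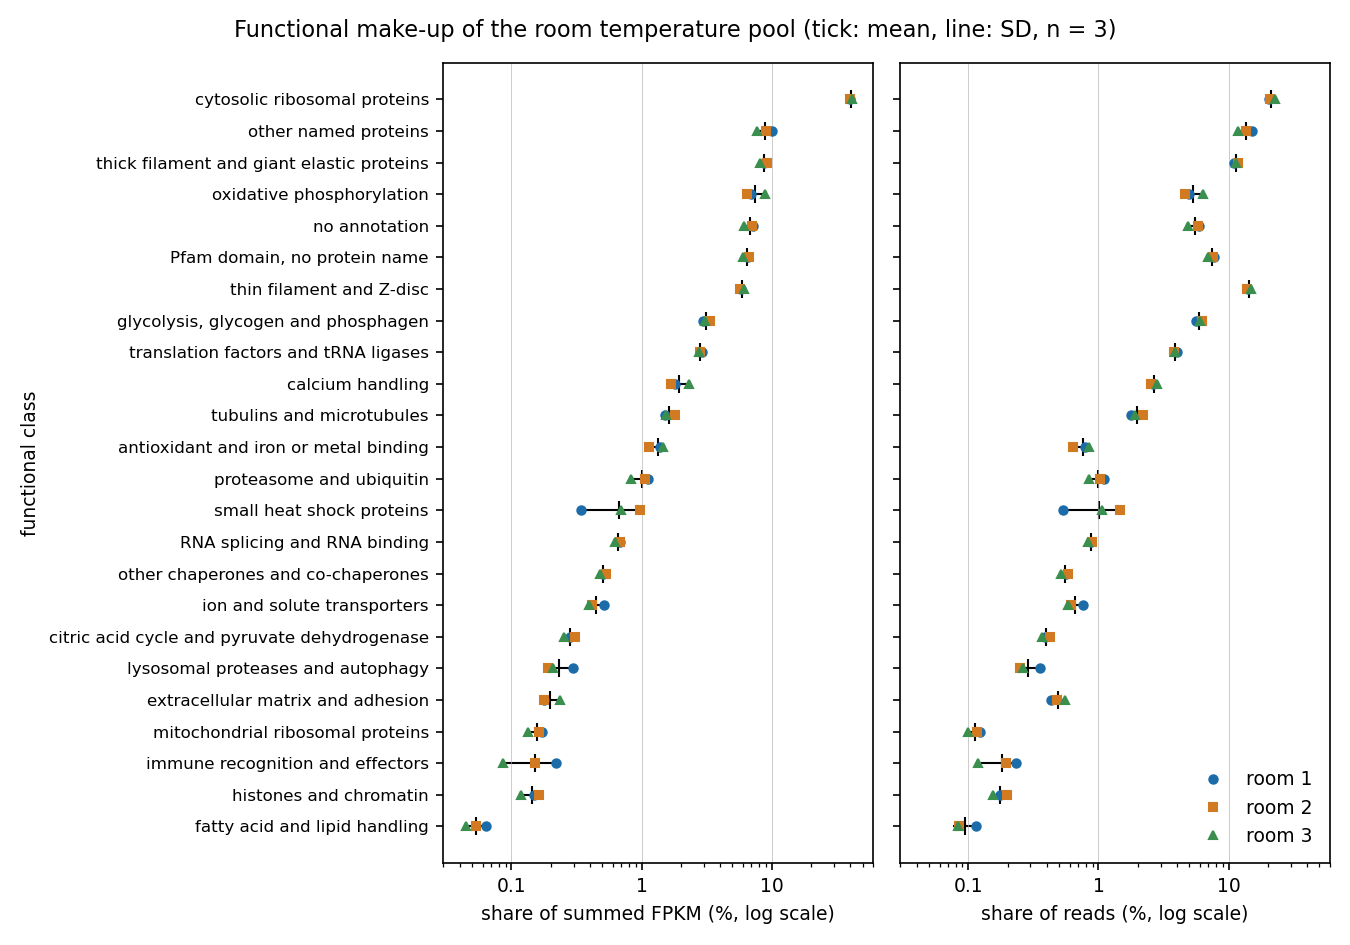
Share of each functional class in the room temperature pool, as share of summed FPKM (left) and share of reads (right), both in % on a log axis. Points are the 3 libraries, ticks their mean and lines the SD. Cytosolic ribosomal proteins held 40.5% by FPKM and 21.4% by reads, thin filament models 5.88% and 14.2%, and the 3 libraries lay widest apart for small heat shock proteins and immune genes.

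Several other proteins reached high levels. An alpha-tubulin, a building block of microtubules (Contig140, 1118231 to 1123016), ranked 14 at 7329, 9512 and 9991 FPKM. Tubulin works as a pair of alpha and beta chains, yet the 16 alpha-tubulin models summed to 8142, 10497 and 11398 FPKM and the 20 beta-tubulin models to 888, 1502 and 1005 FPKM. Soma ferritin, an iron store, ranked 15 at 7659.5, 6585 and 10862 FPKM and made up 83.1% of the antioxidant and metal-binding class. Polyubiquitin-C, the precursor of the ubiquitin tag, stood at 2695, 2684 and 2890.4 FPKM and led the proteasome and ubiquitin class, 1.003% ± 0.16 of the pool. The receptor of activated protein C kinase 1, a scaffold on the small ribosomal subunit, stood at 2579, 2938 and 4092 FPKM. SPARC, a secreted collagen-binding protein, led the extracellular matrix class at 222, 238 and 534 FPKM, and the class made up 0.198% ± 0.034.

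Small heat shock proteins were abundant in these libraries labelled room temperature, and uneven between them. Alpha-crystallin B chain, a chaperone that holds unfolding proteins in solution, stood at 1849, 6246 and 5579.7 FPKM and ranked 40. The 3 named small heat shock models made up 0.343%, 0.970% and 0.699% of the pool, a mean of 0.67% ± 0.31 (SD, n = 3), and library 1 was the lowest. The ATP-dependent chaperones were lower. Heat shock cognate 71 kDa protein, the constitutive HSP70, stood at 229, 239 and 278 FPKM, and HSP90-beta at 99.3, 102.4 and 98.7 FPKM. The 235 models of other chaperones made up 0.505% ± 0.028. They were led by a peptidyl-prolyl cis-trans isomerase B at 1178, 1399 and 1609 FPKM, 36.9% of the class. DnaJ homolog subfamily B member 5 followed at 270, 221 and 279 FPKM.

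Models without a protein name held 13.7%, 13.8% and 12.1% of the pool. The 10862 models with neither a name nor a Pfam domain were 37.6% of all models and held 6.80% ± 0.57 of summed FPKM. The leading one (rank 32) stood at 5732, 4778 and 5579.8 FPKM on a model of 531 bases, and its direct neighbour on Contig58 at 2255, 1957 and 2090.4 FPKM. A lipocalin or fatty-acid-binding domain model, of a family that carries small hydrophobic molecules, stood at 2014, 2893 and 2631 FPKM.

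**Figure D3:**
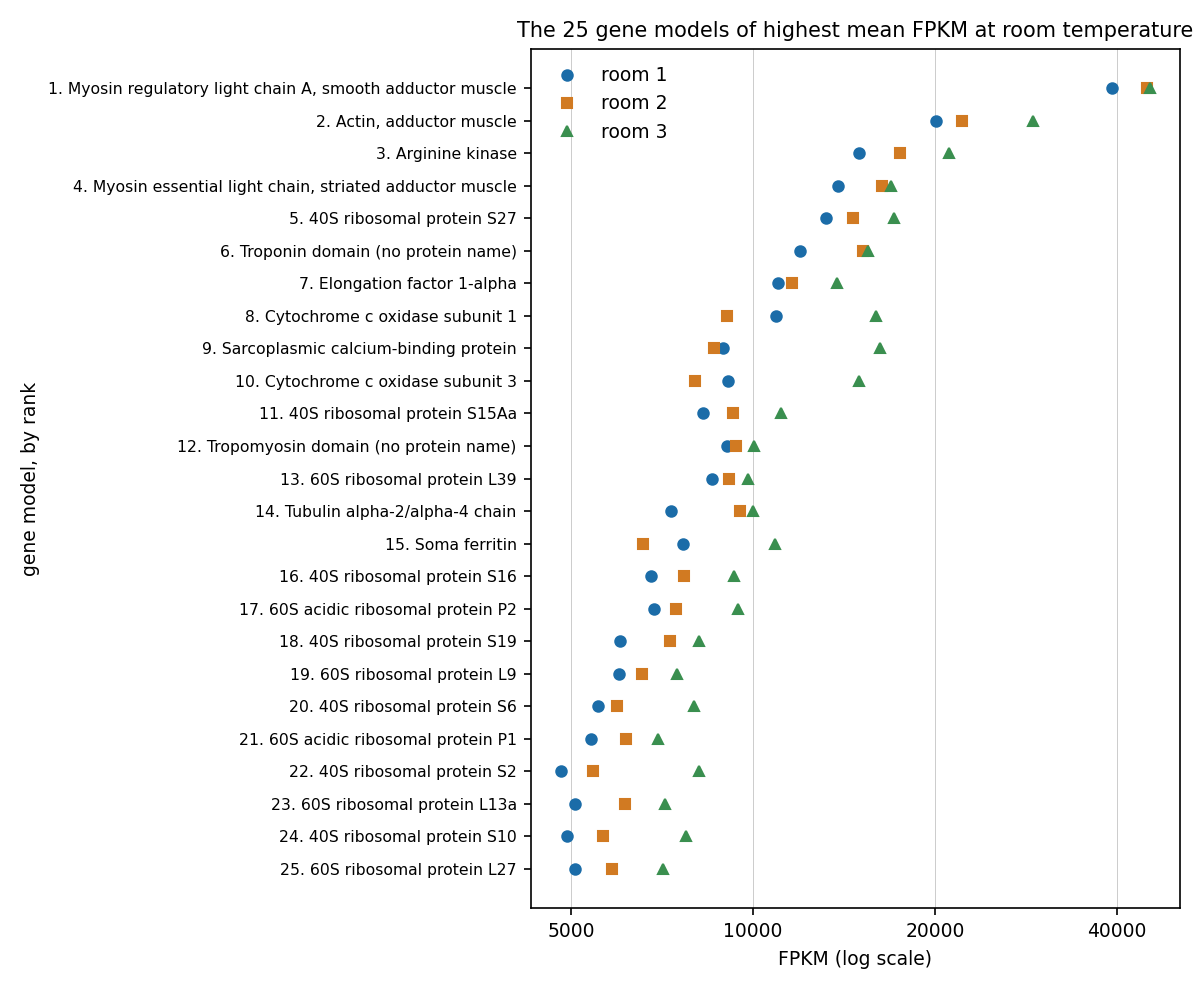
FPKM (horizontal axis, log scale) of the 25 gene models of highest mean in each room temperature library, in order of rank from top to bottom. Library 1 is the lowest in most rows, library 3 has the highest value in each of the 25, and the regulatory light chain stands apart at 39264 to 45426 FPKM.

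Within abundant protein families, 1 model often provided most of the expression. Each model was counted only in the family of its first listed Pfam domain. Among 149 Pfam families with at least 3 models and a summed level of at least 100 FPKM, the leading model held at least 50% in 101. It held at least 90% in 33, with a median of 72.5% over the 149. A family could reach that summed level through its leading model alone, so the choice favours families with 1 dominant model. Among the 38 families with at least 50 models, taken by size, the leading model held from 9.01% to 95.4%. Examples with at least 90% were ferritin (98.99% of 5 models) and porins (99.7% of 3). The leading porin was voltage-dependent anion channel 2 of the mitochondrial outer membrane. Paramyosin held 99.5% of the 4 models whose first domain is the myosin tail. The striated muscle myosin heavy chain also carries a myosin tail, but was counted under its motor domain. In the calponin family the lead was smaller, with transgelin-3, an actin-binding protein, holding 76.3% at 1134, 2259 and 3387 FPKM, and calponin-2 at 550, 822 and 723 FPKM. Detection differed between the largest families. Over the 38 families with at least 50 models, 650 of 4057 models (16.02%) stood at 1 FPKM or more in every library, against 23.3% of all models. For rhodopsin-like receptors this was 21 of 395, for C-type lectins 13 of 248, and for C1q-domain proteins, which act in innate recognition in bivalves, 2 of 127. It was 76 of 91 for RNA recognition motif proteins, 66 of 104 for the Ras family of small GTPases and 64 of 198 for protein kinases, all above the share of all models.

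Agreement of the 3 libraries was measured over gene models. Across the 8448 models with a mean of at least 1 FPKM, Pearson's r of log2(FPKM + 1) was 0.948 between libraries 1 and 2, 0.946 between 1 and 3 and 0.936 between 2 and 3, and Spearman's rho was 0.852, 0.850 and 0.815. These are correlations across genes, which are not independent replicates, and no p is attached. Of the 50 most abundant models of each library, 44 were common to all 3, and of the first 100, 95 were. The coefficient of variation between libraries fell with abundance, from a median of 33.3% at 1 to 3 FPKM to 17.2% at 1000 FPKM and over. The part that counting alone would give fell from 11.9% to 0.41%, and the measured spread was the larger in each of the 6 abundance classes.

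**Figure D4:**
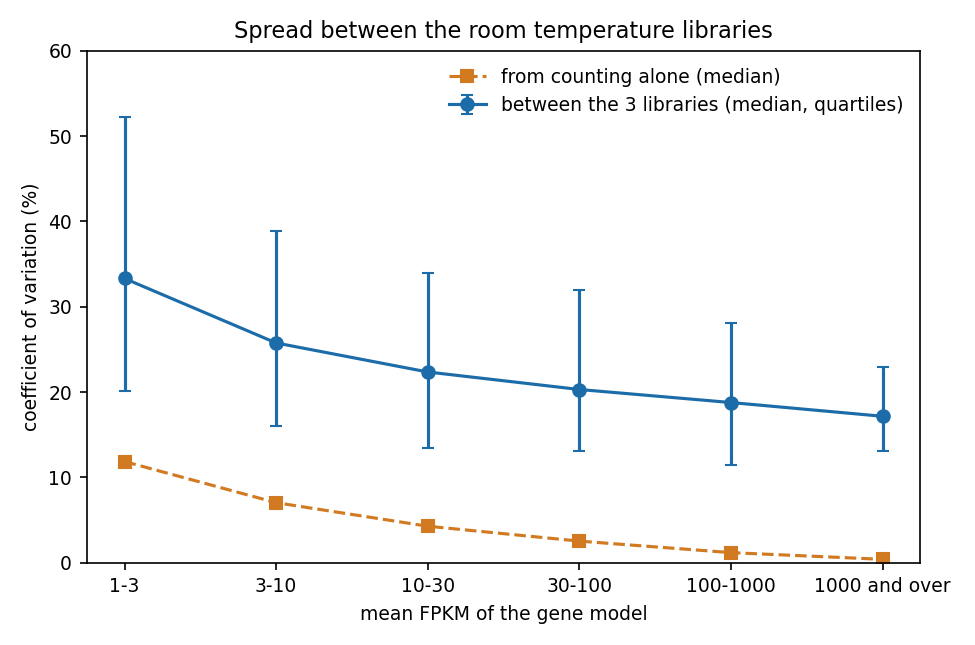
Median coefficient of variation of deposited FPKM (vertical axis, %) between the 3 room temperature libraries by mean FPKM of the gene model (horizontal axis, 6 classes). Differences in FPKM sum between the libraries are included. Circles are the measured spread, with bars for the quartiles over gene models, and squares the spread from counting alone. The measured spread falls from 33.3% to 17.2% and lies above the counting line throughout.

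Part of this spread was shared by the abundant genes. Of the 137 models with a mean of at least 1000 FPKM, 127 were highest in library 3 on the FPKM scale and 74 as a share of summed FPKM. The FPKM sum of that library was also the highest. Over the 8448 models with a mean of at least 1 FPKM, no library led on the FPKM scale. There, 2768, 2944 and 2736 models were highest in libraries 1, 2 and 3. As shares of summed FPKM these counts were 4041, 3023 and 1384, so the share scale placed fewer models highest in library 3. Among models of at least 10 FPKM, the ratio of the highest to the lowest library on the FPKM scale had a median of 1.48. It was lowest in translation factors (1.30, 44 models) and highest in the immune class (2.41, 10 models) and the small heat shock class (2.597, 3 models). The immune class made up 0.219%, 0.151% and 0.0856% of the pool, and 47.8% of it was big defensin. Without big defensin the class made up 0.0955%, 0.0844% and 0.0548%, a ratio of 1.74 between the highest and the lowest library.

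Of the 413 models with a mean of at least 100 FPKM, 56 (13.6%) differed by more than 2 times between libraries. The widest was a model with a calponin homology domain, an actin-binding fold (Contig119, 3751877 to 3775041), at 29.4, 11.3 and 476 FPKM, a ratio of 42.2 that rests on library 3. A universal stress protein domain model followed at 380.3, 1103 and 186 FPKM. A haem-binding SOUL domain model was low in library 2, at 797, 162 and 664 FPKM. The GTP-binding protein RAD, which restrains voltage-gated calcium channels in vertebrate muscle, stood at 177, 66.2 and 302 FPKM. Twist-related protein 2, a helix-loop-helix transcription factor of mesoderm, stood at 472.1, 414 and 115 FPKM. The library that stood out differed from gene to gene. On the FPKM scale the steadiest were alpha-actinin, filamin-C, HSP90-beta and a probable elongation factor 1-beta/1-delta, the last at 833, 865 and 863 FPKM. As shares of summed FPKM their ratios were 1.27, 1.26, 1.30 and 1.25, near the median of 1.29 over the 413 models. A model of equal FPKM in all 3 libraries must differ as a share, since the FPKM sums ran from 666770 to 864235. Whether these models count as steady therefore depends on the scale. As shares of summed FPKM, 60 models differed by more than 2 times, and 6 of the 8 widest were the same.

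The make-up of the room temperature pool was then set against the 6 libraries from high and low temperature. The comparison asks whether the overall composition of unstressed muscle differs from that of the others, with an exact two-sided permutation test over libraries of 10 measures. The smallest p that 84 arrangements allow is 0.0238. After adjustment over 10 measures, 1 measure alone at that p could not fall under 0.05, so only several measures together could pass. None of the 10 measures passed, 0 had an unadjusted p under 0.05, and the room temperature range overlapped the range of the other libraries for each. The lowest p belonged to cytosolic ribosomal proteins, at 40.5% ± 1.13 (n = 3) at room temperature against 38.5% ± 1.82 (n = 6) in the others (exact permutation p = 0.119, adjusted p = 0.976). Thick filament models made up 8.68% ± 0.57 against 9.27% ± 0.93 (exact permutation p = 0.357), and oxidative phosphorylation 7.43% ± 1.28 against 8.75% ± 2.23 (exact permutation p = 0.429). The small heat shock share was 0.67% ± 0.31 against 0.585% ± 0.28 (exact permutation p = 0.714). All 10 adjusted p were 0.976. With so few libraries, these tests do not show that the compositions were alike. Of the 50 most abundant room temperature models by mean, 45 to 48 were also among the first 50 of each other library.

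**Figure D5:**
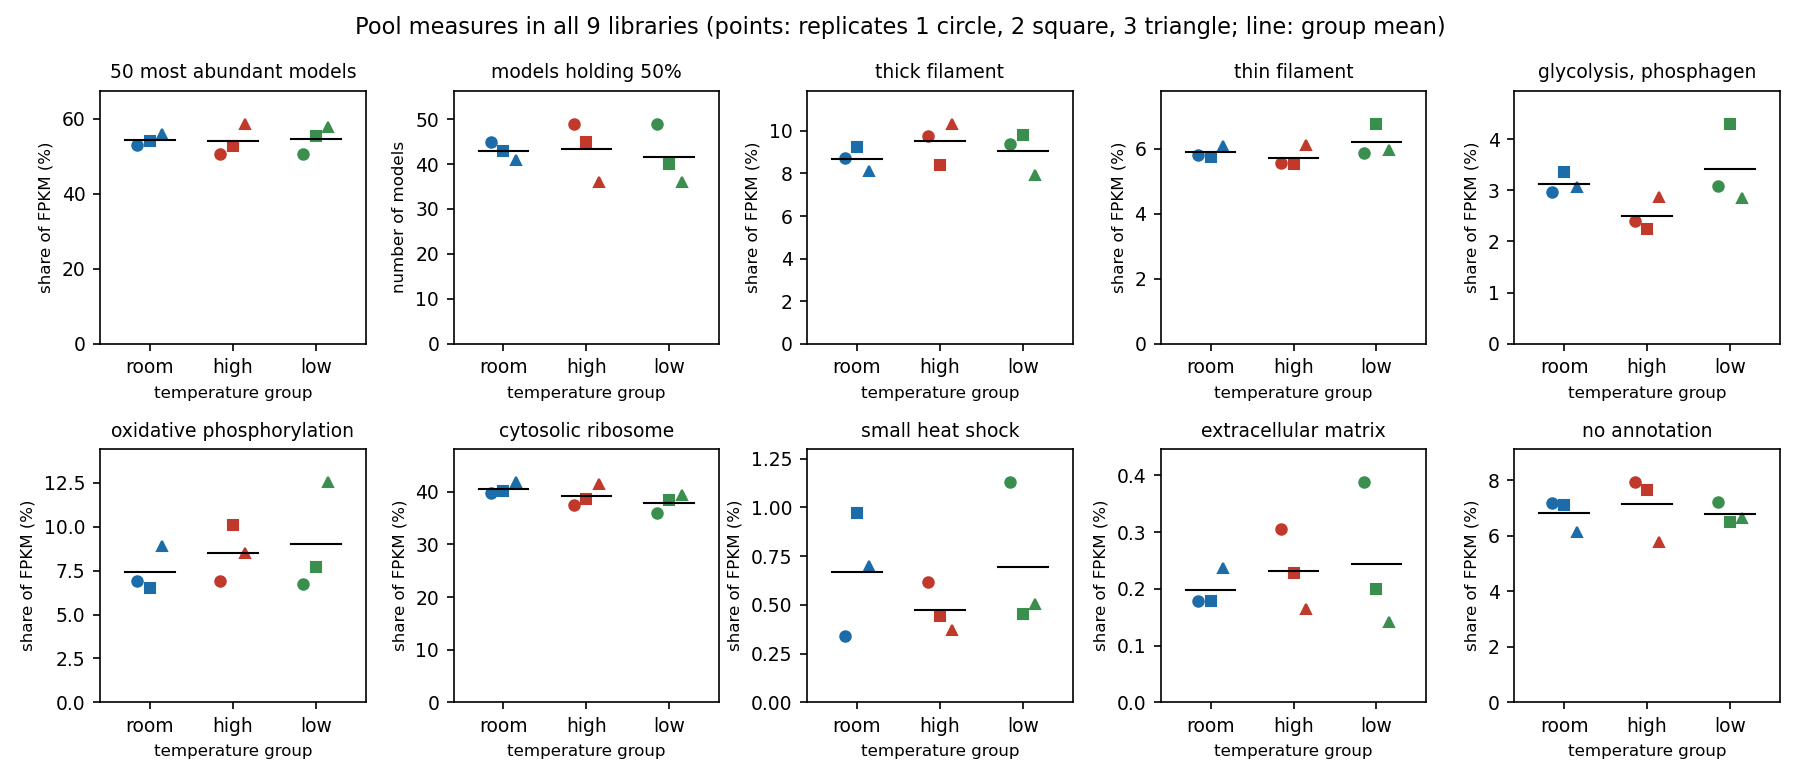
The 10 measures of pool composition in all 9 libraries, by temperature group: shares of summed FPKM in % or, in 1 panel, the number of gene models that hold 50% of the pool. Points are libraries (circle, square and triangle for replicates 1, 2 and 3) and black lines group means, and the room temperature points lie within or overlap the range of the others in each panel.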

How the data were processed

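Total RNA of adductor muscle was sequenced in 9 libraries, of which the 3 at room temperature are described. Reads were aligned and counted with tools that the submitters' processing notes list as HISAT2 2.0.4 and HTSeq 0.9.1. Build, settings and strandedness: not given in the sources used here, so overlapping or antisense genes may share reads. The deposited table holds FPKM for 28864 gene models, per the file headers, with Swiss-Prot names for 14302.

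Reads per model were recovered by dividing FPKM times model length by its smallest value above 0 in a library (largest distance from a whole number 3.66e-08 read). They served for shares of reads and counting error, and no count test was run. Classes were assigned by words in protein names, first match first, which also caught a few names outside their role, such as myosin light chain kinase. Of the model lengths, 60.5% are multiples of 3, so models with and without untranslated sequence may be mixed, and the effect on FPKM was not tested.

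The genes named are the 25 models of highest mean FPKM, the 10 of highest read share outside them, the 3 leading models of each class, the 5 leading models without a name, leading family members, the 8 most and 4 least variable models at 100 FPKM or more, the leading markers of each tissue and muscle proteins asked for by name. Genes outside this rule (further enzymes of glycolysis, titin, calponin-2, transgelin-3, ryanodine receptor, calmodulin, the ATP synthase lipid-binding protein and the transcription factors) were chosen after their values were seen. Members, lists and classes were chosen with earlier results of these data known.

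Libraries were compared with an exact permutation test of group means, with Benjamini-Hochberg adjustment over 10 measures, tested on simulated data. Python 3.11.15, NumPy 2.4.6, pandas 2.3.3 and SciPy 1.17.1 were used. Alternatives were shares of reads, models of at least 300 bases, a minimum mean of 1 FPKM, other thresholds and pseudocounts, each library left out, and labels permuted within replicate numbers. At most 3.54% of models with reads had equal read numbers in any pair of libraries.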

Additional observations from a re-analysis of the deposited data

How the results depend on the processing

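On the reads scale the shares became 11.5% for thick filament, 14.2% for thin filament, 5.97% for glycolysis, 5.31% for oxidative phosphorylation, 21.4% for cytosolic ribosome and 5.55% for models without annotation. With models of at least 300 bases only, thin filament was 6.26%, glycolysis 3.33% and cytosolic ribosome 37.8%. In changes chosen after seeing the data, thin filament was 9.05% with the troponin and tropomyosin domains, and without the mitochondrial contigs thin filament was 6.14%, oxidative phosphorylation 3.38% and cytosolic ribosome 42.3%. Detection at 5 FPKM left 2716 models against 6711. The lowest Pearson r was 0.960 without a filter and 0.894 with a pseudocount of 0.1. Leaving out each library in turn gave 0.936 to 0.948 for it, 53.5% to 54.9% for the first 50 models, 42 to 44 models holding 50%, and 7116 to 7242 detected models, with only 2 libraries required.

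In the comparison with the other libraries (room temperature minus the others, in percentage points or models) adjusted p ranged from 0.357 to 1 over the alternatives run. Against 1 temperature group alone no p below 0.1 was possible, so these say nothing about stability. The lowest unadjusted p was 0.0357, for the ribosomal share without high 3 (adjusted p 0.357). Here too, 1 measure alone could not reach an adjusted p under 0.05. The following differences turned in sign. Against high temperature alone the differences were 0.20 for the first 50 models, -0.333 for models holding 50% and 0.157 for thin filament. Against low temperature alone they were -0.282 for glycolysis, -0.0243 for small heat shock and 0.0103 for no annotation. On reads, models holding 50% was -0.167 and thin filament 0.0492, and with models of at least 300 bases, models holding 50% was 0. Without the libraries high 3 and low 3, whose pools are the most concentrated, the first 50 models gave 1.90 and models holding 50% gave -2.75. Leaving out 1 library at a time gave -0.850 to 0.828 for the first 50 models, -0.8 to 1.8 for models holding 50%, -0.180 to 0.0880 for thin filament, -0.0643 to 0.249 for small heat shock and -0.390 to 0.173 for no annotation. The other 5 measures kept their sign.

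Replicate numbers were not taken as pairs in the main comparison. Of 9 same-number correlations over models, 3 exceeded 0.1 (range -0.103 to 0.242), and the 18 different-number correlations ranged from -0.224 to 0.120. In each group, library 3 had the highest and library 1 the lowest share of the first 50 models and of ribosomal proteins. Whether libraries of 1 number share a source or batch was not tested. With the replicate block the smallest possible p is 0.0741, so no measure could pass. The ribosomal difference of 2.03 reached that p, its room temperature share being the highest within each number (39.7%, 40.1% and 41.8%). The cause of the changes of value was not tested. Depth limits only low models: 3 reads on the 303-base twitchin model equal at most 0.69 FPKM.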

Other observations

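Of 240 models with names of transcription regulators, a list drawn up by words after the values were seen, 69 (28.8%) stood at 1 FPKM or more in all 3 room temperature libraries, against 23.3% of all models. In all 3, 81 (33.8%) were listed at 0, against 31.7%. A mean of at least 100 FPKM was reached by 3 of them (1.25%, against 1.43% of all models). The words did not catch Twist-related protein 2, which also exceeded 100 FPKM. ATF-5, a regulator of stress responses, stood at 1204, 1127 and 612 FPKM in libraries 1, 2 and 3. XBP1, which acts in the unfolded protein response, stood at 771, 762 and 701 FPKM, or 0.116%, 0.105% and 0.0811% of summed FPKM. C/EBP beta, a regulator of inflammation in mammals, stood at 307, 97.7 and 74.8 FPKM, highest in library 1. The more abundant model named NF-kappa-B p105 stood at 69.7, 26.6 and 21.5 FPKM, in the same order.

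Among regulators known for muscle, Twist-related protein 1 stood at 70.9, 60.3 and 22.8 FPKM on the same contig as Twist-related protein 2, and both were lowest in library 3. The homeobox protein six1b, a factor of vertebrate myogenesis, stood at 41.9, 37.9 and 53.8 FPKM. The more abundant of the models named myocyte-specific enhancer factor 2C stood at 4.61, 4.36 and 2.13 FPKM, and Pax-3 was listed at 0 in all 3 libraries.

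Some abundant genes lay near each other, though not always as direct neighbours. Of the 100 most abundant models, 14 had another of the 100 within 100 kb on the same contig, against 3.83% of the 6611 other models at 1 FPKM or more. They included 4 pairs of large-subunit ribosomal proteins (L32 with L12, L23 with L7a, L37a with L27, and P1 with L30), the pair of unannotated models on Contig58 and the mitochondrial pairs. The difference was not tested.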
